A study of Mus musculus with 24 samples.

Results

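The lungs of newborn *Scnn1b*-Tg mice were compared with those of newborn wild type (WT) mice, on the day of birth (PND 0, postnatal day 0), before overt mucus disease. The members were the arrays titled *Scnn1b*-Tg, PND 0 (3 arrays) and WT, PND 0 (3 arrays), which makes 6 of the 24 whole-lung arrays of the series. The other 18 arrays hold the same genotypes at PND 3, 10 and 42 (3 of each). All animals were males of the C57BL/6N background from a pathogen-free colony, the WT mice were littermates, and RNA came from the left lobe. Each array holds a pool: the study's methods give 3 mice per pool, while the labels list 2 animal numbers for each PND 0 array. The number of arrays, and not the number of mice, limits the precision of each value. The transgene carries *Scnn1b* behind the promoter of *Scgb1a1*, the gene of club cell secretory protein, so it is active in the club cells of the airways and not in every cell that normally makes the channel.

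*Scnn1b* encodes the beta subunit of the epithelial sodium channel, ENaC, which takes up sodium across the airway surface and draws water after it. The alpha and gamma subunits are encoded by *Scnn1a* and *Scnn1g*. When too much sodium is absorbed, the liquid layer over the airway thins, mucus becomes concentrated and cilia clear it poorly. Club cells are secretory cells of the conducting airways, ciliated cells move the mucus, and goblet cells make most of it in diseased airways.

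The arrays were Affymetrix Mouse Gene 1.0 ST arrays, on which a probe set (a group of probes read as 1 value) stands for a transcript. Values are log2 intensities, so a difference of 1 is 2-fold, and differences are *Scnn1b*-Tg minus WT throughout. Differences and p-values come from limma with Benjamini-Hochberg adjustment over the 21,789 probe sets that name exactly 1 gene (19,938 genes), fitted to all 24 arrays. Calls required both a 2-fold difference and an adjusted p no higher than 0.05. Beside calls, unadjusted p-values of at most 0.05 are counted, and shares of a list are to be read against the shares of all genes (brightest probe set of each) that reached them at birth, 1.94% higher and 2.33% lower.

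At birth few probe sets separated the genotypes. Called higher in *Scnn1b*-Tg were 3 probe sets (0.0138% of those tested), those of *Scnn1b*, *Ttr* and *Phxr4*, and 0 were called lower. At the adjusted p alone there were 5 (0.0229%), all higher, the other two being those of the microRNA gene *Mir126a* and of *Prkch*. At an unadjusted p of at most 0.05 there were 483 higher (2.22%) and 507 lower (2.33%). The count at the adjusted p alone was 20 without *Scnn1b*-Tg replicate 1, 8 without *Scnn1b*-Tg replicate 2, 8 without WT replicate 2 and 3 without WT replicate 3, and the count of calls ranged between 2 and 7 as single arrays were left out. With the 6 arrays fitted alone in limma, with their own estimate of the spread, the adjusted p left 0, and the unadjusted p left 620 higher and 719 lower. Subtracting each array's median kept the 5 probe sets but moved the split at the unadjusted p to 212 higher (0.973%) and 1,350 lower (6.2%).

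The 95% confidence interval of the difference lay between −1 and 1 log2 for 21,371 of 21,789 probe sets (98.1%), reaching a median of 0.29 to either side. The median difference over all probe sets was −0.02. From the 5th to the 95th percentile, differences ran between −0.26 and 0.24.

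**Figure D1:**
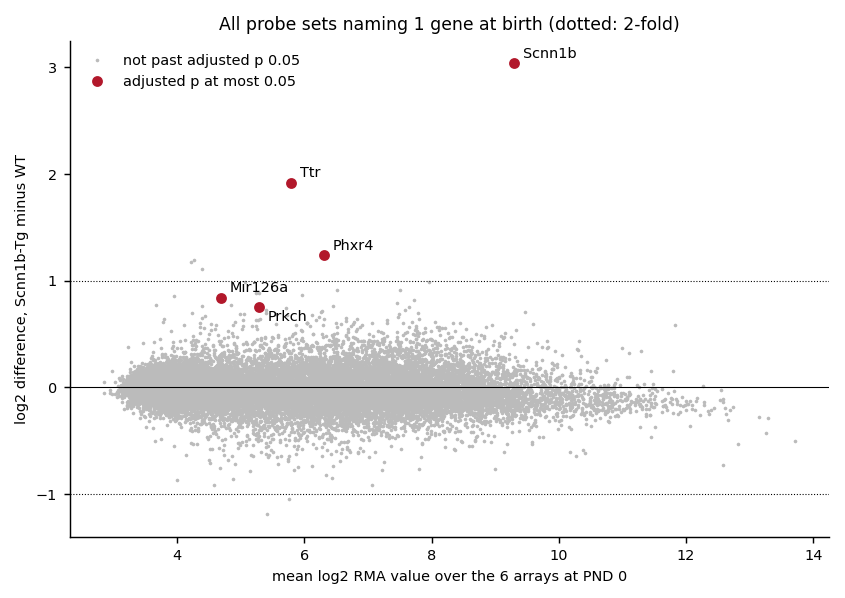
Difference between *Scnn1b*-Tg and WT lungs at PND 0 (log2, vertical axis) against the mean level of the 6 arrays (log2, horizontal axis), 1 point for each probe set that names 1 gene; dotted lines mark 2-fold. The 5 named points have an adjusted p of at most 0.05, and nearly all other points lie between the dotted lines.

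Before the genes, the arrays. Distances between arrays (root mean square of the log2 differences over all probe sets tested) were 0.18 between WT replicates 2 and 3 and 0.19 between *Scnn1b*-Tg replicates 2 and 3. *Scnn1b*-Tg replicate 1 lay 0.29 and 0.31 from the other two of its group, and its nearest array was WT replicate 2. WT replicate 1 lay 0.31 and 0.32 from the other WT arrays. The mean distance was 0.27 between genotypes and also 0.27 within each genotype.

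WT replicate 1 held transcripts that liver makes. *Alb*, the gene of serum albumin, was at 6.30, 3.99 and 4.18 in *Scnn1b*-Tg and at 9.65, 4.30 and 4.08 in WT replicates 1 to 3. *Ahsg*, the gene of the serum protein fetuin, was at 5.18, 3.77 and 4.42 in *Scnn1b*-Tg, against 8.20, 3.72 and 4.02 in WT. The 17 measured genes of a list for liver, pancreas and oesophagus averaged 4.52, 4.25 and 4.77 in *Scnn1b*-Tg, against 5.26, 4.18 and 4.24 in WT. The list includes *Ttr*, whose signal in *Scnn1b*-Tg the study attributes to the transgenic construct. So a single WT array stood out for liver genes, and *Scnn1b*-Tg replicate 1 had some *Alb* too. Among the *Scnn1b*-Tg arrays the list's mean was highest on replicate 3 (4.77). The list for cardiac and skeletal muscle (42 genes) stood out on another array: its mean was 5.13, 5.16 and 5.67 in *Scnn1b*-Tg against 5.22, 5.31 and 5.33 in WT, and *Nppa*, a peptide hormone of the cardiac atria, was at 3.76, 3.49 and 7.18 in *Scnn1b*-Tg against 3.68, 3.68 and 3.56 in WT.

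**Figure D2:**
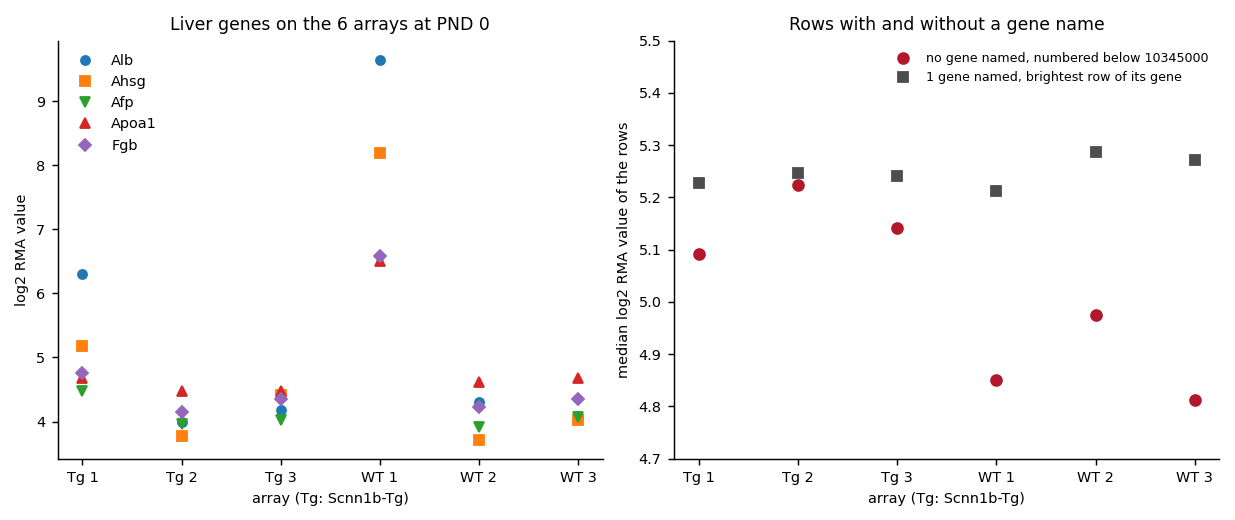
Levels on each of the 6 PND 0 arrays (log2), *Scnn1b*-Tg left of WT: liver genes (left panel) and the median of 2 classes of probe sets (right panel). Liver genes peak on WT replicate 1, where *Alb* reaches 9.65, and the median of unnamed probe sets with the lowest identifiers is above 5.09 on every *Scnn1b*-Tg array and below 4.98 on every WT array.

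For many of the results below, values without WT replicate 1 are given as well. Markers of lung and of sex went with the labels on all 6 arrays. *Sftpc*, the surfactant protein gene of alveolar type II cells, was at 13.30, 13.20 and 12.63 in *Scnn1b*-Tg and 13.41, 13.61 and 13.39 in WT. *Xist*, which is transcribed from the inactive X chromosome of females, lay between 3.66 and 4.0 on all 6 arrays, and the Y-linked *Eif2s3y* lay at 8.47, 8.56 and 8.47 in *Scnn1b*-Tg and 8.06, 8.14 and 7.92 in WT (difference 0.46, adjusted p = 1.00).

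The targeted gene came first among all probe sets. *Scnn1b* (chromosome 7) was at 10.94, 10.91 and 10.58 in *Scnn1b*-Tg lungs, against 6.93, 8.22 and 8.16 in WT lungs. The groups lay far apart, and WT replicate 1 was the low array. The difference was 3.04 (SE 0.26, adjusted p = 2.02e-06), which is 8.21-fold (95% interval 5.65 to 11.9), and 2.62 without WT replicate 1. It was 3.29 at PND 3, 3.22 at PND 10 and 2.93 at PND 42, and the tests of the difference at birth against these did not pass (adjusted p = 0.998, 0.969 and 0.995). The means over 3 arrays at birth were 10.81 ± 0.20 in *Scnn1b*-Tg and 7.77 ± 0.73 in WT (SD).

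The partner subunits did not pass the test. *Scnn1a* was at 10.10, 10.06 and 9.97 in *Scnn1b*-Tg and at 9.71, 9.91 and 10.26 in WT (difference 0.08, 95% interval −0.38 to 0.55). *Scnn1g* was at 9.81, 9.93 and 9.65 in *Scnn1b*-Tg and at 9.67, 9.91 and 9.99 in WT (difference −0.06, interval −0.37 to 0.26). Among 21 measured ENaC subunits and regulators, *Scnn1b* alone reached an unadjusted p of at most 0.05. *Sgk1*, a kinase that raises ENaC at the cell surface, differed by −0.28 (SE 0.19), and *Nedd4l*, a ubiquitin ligase that removes the channel, by −0.03 (SE 0.20). Of 21 other genes of airway ion and water transport, 0 reached it in limma, where 4.54% of all probe sets did. *Aqp5*, a water channel of alveolar type I cells and airway glands, was at 9.04, 9.04 and 8.91 in *Scnn1b*-Tg and at 9.30, 9.13 and 9.16 in WT, lower on every *Scnn1b*-Tg array (difference −0.20, SE 0.13, adjusted p = 1.00).

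*Ttr*, the gene of the thyroid hormone carrier transthyretin, was higher in *Scnn1b*-Tg lungs in these values. The study's text attributes its signal to the transgenic construct. In the study's own list of genotype differences, *Ttr* passed at PND 10 only, and its fold change at birth was below 2-fold. It was at 6.89, 6.74 and 6.63 in *Scnn1b*-Tg and at 5.96, 4.27 and 4.28 in WT. The groups did not overlap, and the high WT value was again WT replicate 1. The difference was 1.92 (SE 0.31, adjusted p = 0.013), 3.78-fold (95% interval 2.43 to 5.87). Without WT replicate 1 it was 2.48 (adjusted p = 1.69e-06). The call was lost without *Scnn1b*-Tg replicate 2 (adjusted p = 0.052), *Scnn1b*-Tg replicate 3 (0.063), WT replicate 2 (0.11) or WT replicate 3 (0.17). Liver also makes *Ttr*. In WT lungs at PND 3, *Alb* was at 7.72, 5.29 and 7.58 and *Ttr* at 5.51, 4.54 and 5.31 in replicates 1 to 3. The WT arrays with more *Alb* had more *Ttr* at that age. This did not hold at PND 10 or 42, where the WT array with the most *Alb* was not the one with the most *Ttr*. The part of liver RNA in the WT level of *Ttr* was not tested. At later ages the *Ttr* difference was 1.89, 2.71 and 2.54 (PND 3, 10 and 42).

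The other three probe sets at an adjusted p of at most 0.05 had higher mean levels at birth than at any later age in both genotypes. *Phxr4*, annotated as a long non-coding RNA on chromosome 9, was at 6.48, 7.15 and 7.16 in *Scnn1b*-Tg and at 5.40, 5.66 and 6.00 in WT. The lowest *Scnn1b*-Tg array lay above the highest WT array. Its difference was 1.24 (SE 0.17, adjusted p = 0.0030), 2.36-fold (95% interval 1.84 to 3.03), and 1.10 without WT replicate 1. At PND 3, 10 and 42 the means lay between 4.29 and 4.56 in *Scnn1b*-Tg and between 4.22 and 4.58 in WT, with differences of 0.12, −0.20 and −0.02. The difference at birth exceeded that at PND 10 by 1.44 (SE 0.24, adjusted p = 0.019) and that at PND 42 by 1.26 (adjusted p = 0.023). Against PND 3 the excess of 1.12 did not pass (adjusted p = 0.87).

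*Prkch* encodes protein kinase C eta, an enzyme of epithelia. It has 2 probe sets, and they disagreed. The dimmer (10396419) was at 5.71, 5.85 and 5.44 in *Scnn1b*-Tg and at 5.09, 4.82 and 4.81 in WT, a difference of 0.75 (SE 0.11, adjusted p = 0.0043). Without WT replicate 3 its adjusted p was 0.073. The brighter (10396402) was at 8.09, 7.85 and 7.95 in *Scnn1b*-Tg and at 8.51, 7.96 and 8.11 in WT, a difference of −0.23 (SE 0.18, adjusted p = 1.00). The means of the dimmer probe set at PND 3 were 4.01 in *Scnn1b*-Tg and 3.88 in WT. Its excess at birth over PND 42 was 0.73 (adjusted p = 0.042).

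**Figure D3:**
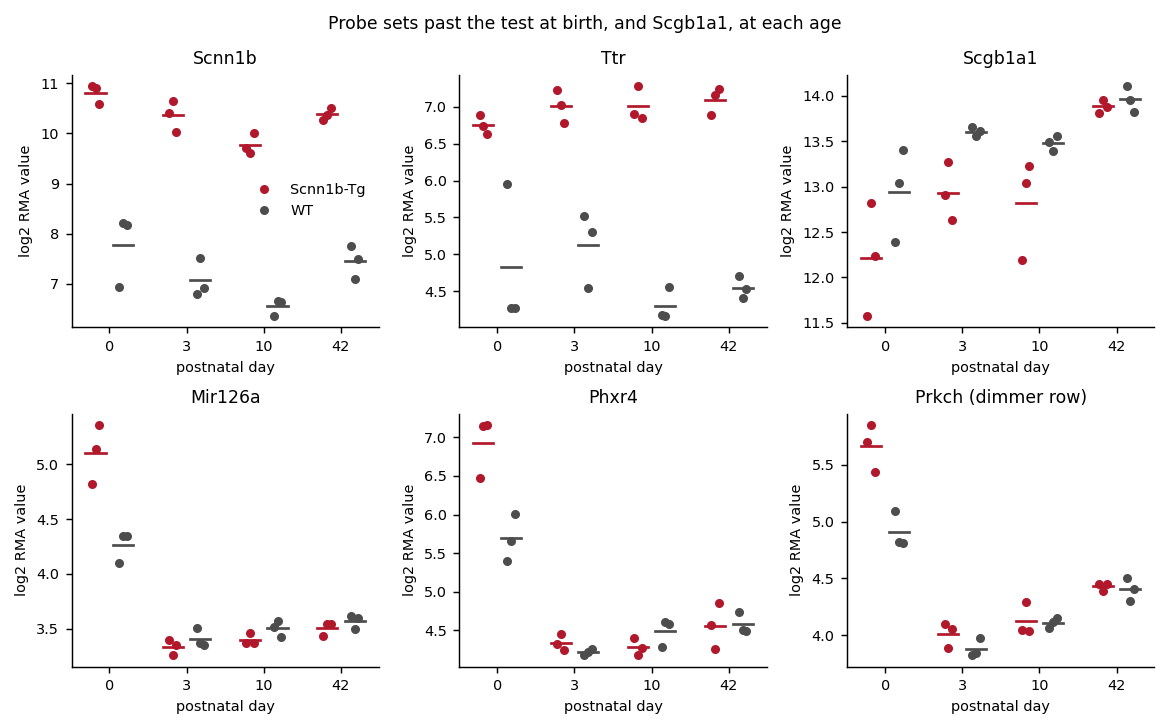
Levels (log2) of 6 probe sets on each array at PND 0, 3, 10 and 42, *Scnn1b*-Tg (red) left of WT (grey), bars at the means of 3 arrays. *Scnn1b* and *Ttr* lie apart at all 4 ages. *Phxr4*, *Mir126a* and the dimmer *Prkch* probe set lie apart at PND 0 and low at later ages in both genotypes. *Scgb1a1* overlaps at PND 0 and 42 and lies lower in *Scnn1b*-Tg at PND 3 and 10.

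Just outside the threshold, *Rmdn2*, a gene of a microtubule-associated protein, showed the same split between probe sets. Its dimmer probe set (10447079) was at 5.99, 5.21 and 5.5 in *Scnn1b*-Tg and at 4.51, 4.77 and 4.46 in WT (difference 0.99, SE 0.18, adjusted p = 0.058). With the replicate number as a block its adjusted p was 0.028, so it passed there. Its brighter probe set (10447065) differed by 0.08 (SE 0.16). *Cspp1*, a gene of a centrosome and cilium protein, has 14 probe sets here, with differences between 0.08 and 0.82, none of which passed (adjusted p = 0.38 for the last).

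The largest differences without overlap, among probe sets above 5 log2 in a group, included further genes that did not pass. Groups failed to overlap in 2,726 probe sets (12.5%). On the higher side, *Phgdh*, the first enzyme of serine synthesis, was at 5.28, 5.88 and 5.91 in *Scnn1b*-Tg against 4.69, 5.08 and 4.64 in WT (difference 0.89, adjusted p = 0.80). The others there were *Gm7265* (0.92), *2310067E19Rik* (0.87), a dimmer probe set of *Kansl1* (0.79), *9530091C08Rik* (0.77) and *F630048H11Rik* (0.76). On the lower side, *Tekt2*, which encodes a tektin of ciliary and flagellar microtubules, came nearest to the threshold: 4.62, 4.50 and 4.51 in *Scnn1b*-Tg against 5.37, 5.12 and 5.06 in WT (difference −0.64, SE 0.13, adjusted p = 0.14). *Apln*, the ligand of the apelin receptor, was at 5.01, 5.61 and 5.74 in *Scnn1b*-Tg against 6.77, 5.98 and 5.94 in WT (difference −0.78, adjusted p = 0.42). Several of these lower differences shrank without WT replicate 1, the high array in each: *Apln* to −0.51, *Susd2* to −0.22 (−0.69 with it) and *Acoxl* to −0.27 (−0.64 with it). *Chad*, *AU021092*, *Apold1*, *Ndufa4l2*, *Lrrc23*, *Glb1l2*, *Pglyrp1* and *Dnali1* completed the 12, with differences between −0.85 and −0.65.

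*Mir126a*, a microRNA gene of endothelial cells that lies within *Egfl7*, was at 4.82, 5.13 and 5.35 in *Scnn1b*-Tg and at 4.10, 4.34 and 4.35 in WT. The groups did not overlap. The difference was 0.84 (SE 0.11, adjusted p = 0.0015), 1.79-fold (95% interval 1.53 to 2.09), and 0.76 without WT replicate 1. At later ages its means lay between 3.34 and 3.57 in both genotypes. The difference at birth exceeded that at PND 10 by 0.95 (adjusted p = 0.018) and that at PND 42 by 0.90 (adjusted p = 0.0065), and against PND 3 the excess was 0.91 (adjusted p = 0.15). The probe set of *Egfl7* itself, a secreted endothelial protein, differed by 0.14 (adjusted p = 1.00). Endothelial genes as a list (35 measured) had a median difference of −0.13, so *Mir126a* and the list lay on opposite sides of 0.

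A microRNA binds its targets mainly through its seed (bases 2 to 8, in capitals below), and genes with the same seed can act on the same targets. Mature sequences come from RefSeq (GRCm38.p6), which held 270 of the 296 microRNA genes measured. The probe sets stand for transcripts of these genes, and the levels of the mature products were not measured separately. The first line is the product of the gene that passed the test. The others are shown because another gene on the array makes a product with the same seed, and the differences of both genes can be set side by side.
miR-126a-3p (chr2:26591402-26591423, plus strand): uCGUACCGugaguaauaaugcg
miR-99a-5p (chr16:77598940-77598961, plus strand): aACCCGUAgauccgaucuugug
let-7c-5p (*Mirlet7c-1*, chr16:77599672-77599693, plus strand): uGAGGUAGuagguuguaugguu
let-7e-5p (chr17:17830366-17830387, plus strand): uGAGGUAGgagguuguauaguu
miR-103-3p (*Mir103-2*, chr2:131288103-131288125, plus strand): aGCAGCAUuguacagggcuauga
miR-181b-5p (*Mir181b-1*, chr1:137966650-137966673, plus strand): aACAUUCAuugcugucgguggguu

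Of the 296 microRNA genes, 22 (7.43%) were higher at an unadjusted p of at most 0.05 and 0 lower, where 1.94% and 2.33% of all genes were. The 4 long non-coding host genes of microRNAs on the array were not counted among them. Only *Mir126a* passed after adjustment. The median difference over the 296 was 0.02, with 168 above 0 and 128 below, and 233 lay within 0.2 of 0. Without WT replicate 1 there were 30 higher and 0 lower, where 1.24% and 1.49% of all probe sets were. With array medians subtracted 13 were higher and 7 lower, with a median of −0.05. Of all probe sets, 0.973% were higher and 6.2% lower in that setting, with a median of −0.09. Levels were low: 44 of the 296 exceeded 5 log2 in a group.

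Genes with a shared seed differed alike in some families and not in others, and the members of a family were not tested against each other. Families were picked because a member had an unadjusted p of at most 0.05, so other members nearer 0 follow from the choice. Not all such families are given here. Of the genes with AGCAGCA, *Mir15a* differed by 0.64, and *Mir15b*, *Mir16-1*, *Mir16-2*, *Mir195a* and *Mir497* by 0.06 to 0.29. The miR-221 and miR-222 genes, which share GCUACAU, differed by 0.24 and 0.19. *Mir181b-1* was at 5.58, 5.79 and 5.38 in *Scnn1b*-Tg against 4.73, 5.37 and 4.76 in WT (difference 0.63, adjusted p = 0.33). *Mir181b-2*, a gene elsewhere in the genome for the identical miR-181b-5p, differed by 0.08, and *Mir181a-1* and *Mir181a-2*, with the same seed, by 0.16 and 0.14. *Mir181c* and *Mir181d*, also with that seed, differed by 0.07 and −9.3e-05. *Mir103-2* was at 4.30, 4.41 and 4.10 in *Scnn1b*-Tg against 3.94, 3.87 and 3.69 in WT (difference 0.44, adjusted p = 0.30), while *Mir103-1*, for the same miR-103-3p, differed by −0.08. Of the let-7 family, which share GAGGUAG, *Mirlet7c-1* differed by 0.60 (adjusted p = 0.36) and *Mirlet7e* by 0.38 (adjusted p = 0.77), and the other 7 let-7 genes measured lay between −0.11 and 0.14. *Mir98*, which shares the seed, differed by −0.10. *Mir99a*, which lies next to *Mirlet7c-1* on chromosome 16, was at 4.42, 4.77 and 4.88 in *Scnn1b*-Tg against 4.04, 4.42 and 3.95 in WT (difference 0.56, adjusted p = 0.19). *Mir99b* and *Mir100*, with the same seed, differed by 0.09 and 0.006. *Spaca6*, which spans *Mirlet7e*, was at 6.46, 6.67 and 6.72 in *Scnn1b*-Tg against 5.57, 6.10 and 6.06 in WT (difference 0.71, adjusted p = 0.19), and *Pank2*, which spans *Mir103-2*, differed by 0.10. None of these differences besides that of *Mir126a* passed.

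Other non-coding RNAs of the nucleus were next. Of 10 nuclear long non-coding RNAs, 2 (20%) were higher and 0 lower at an unadjusted p of at most 0.05, against 1.94% and 2.33% of all genes, with a median difference of 0.18. With array medians subtracted 1 was higher and 1 lower, with a median of 0.11, against 0.973% and 6.2% of all probe sets, with a median of −0.09. *Airn*, the long antisense transcript of the *Igf2r* locus, was at 7.71, 8.70 and 8.97 in *Scnn1b*-Tg and at 6.84, 7.73 and 7.84 in WT (difference 0.99, SE 0.29, adjusted p = 0.76). *Firre*, a nuclear RNA of the X chromosome, differed by 0.53, and *Meg3* (0.53) and *Malat1* (0.59) did not reach the unadjusted threshold. Small nucleolar RNAs, which guide modification of ribosomal RNA, had 1 of 54 higher (1.85%, close to the share of all genes) and 0 lower, with a median of 0.11 and 42 of 54 above 0.

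The share of higher probe sets also depended on the class of probe set. In a fit over all rows of the table, 6,626 probe sets that name no gene and carry the lowest identifiers had a median difference of 0.15, with 14.5% higher and 0.83% lower at an unadjusted p of at most 0.05. For the brightest probe set of each gene these shares were 1.82% and 2.08%, and for the 1,851 dimmer probe sets of genes 5.02% and 2.11%. The median level of the unnamed class was 5.09, 5.22 and 5.14 on the *Scnn1b*-Tg arrays and 4.85, 4.98 and 4.81 on the WT arrays, without overlap. Its median difference was 0.13 without WT replicate 1, and 0.04, −0.06 and 0.01 at PND 3, 10 and 42. The array design includes control probe sets against introns and exons of a set of genes. Which of the unnamed probe sets these are is not given in the annotation used here, and their part in the higher values of *Prkch*, *Rmdn2*, *Phxr4* and the microRNA genes was not tested.

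Club cells, in which the transgene is active, were described by 25 marker genes, 22 of them measured. Of these, 0 were higher and 7 (31.8%) lower at an unadjusted p of at most 0.05, against 1.94% and 2.33% of all genes, and 0 passed the adjusted p. The median difference was −0.25 (all genes −0.02), and 20 of 22 lay below 0. In RNA of whole lung, fewer cells of a type and less RNA in each cannot be told apart. *Scgb1a1*, whose promoter drives the transgene, was at 11.58, 12.82 and 12.24 in *Scnn1b*-Tg and at 12.39, 13.04 and 13.41 in WT. The groups overlapped, and replicate 1 was the lowest array in each. The difference was −0.73 (SE 0.27, adjusted p = 0.99), with values between −1.04 and −0.41 as single arrays were left out, of which −0.41 was without *Scnn1b*-Tg replicate 1 and −1.01 without WT replicate 1.

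*Ces1d*, a carboxylesterase, had the lowest p of the list: 10.09, 9.94 and 10.21 in *Scnn1b*-Tg against 10.68, 10.56 and 10.77 in WT, without overlap (difference −0.59, SE 0.14, adjusted p = 0.32). *Scgb3a2*, another secretoglobin of the airway, was at 7.71, 8.43 and 8.51 in *Scnn1b*-Tg against 8.60, 8.82 and 8.78 in WT (difference −0.51, adjusted p = 0.95). *Cyp2f2*, the cytochrome P450 that activates naphthalene in club cells, differed by −0.64, and by −1.03 without WT replicate 1. The others of the 7 were *Chad* (−0.85), *Lypd2* (−0.61) and *Scgb1c1* (−0.46). Without WT replicate 1 the list had 0 higher and 7 lower with a median of −0.43, and without replicate 1 of both genotypes 0 and 6 (2.06% and 2.05% of all probe sets) with a median of −0.26. At PND 3, 10 and 42 the list's median was 0.25, 0.14 and −0.22. *Scgb1a1* itself was lower without overlap at PND 3 (12.91, 13.27 and 12.63 in *Scnn1b*-Tg against 13.66, 13.56 and 13.61 in WT). The same held at PND 10 (12.19, 13.04 and 13.23 against 13.50, 13.39 and 13.56), and at PND 42 the groups overlapped. Genes of xenobiotic metabolism (29 measured) had 1 higher (3.45%) and 5 lower (17.2%), against 1.94% and 2.33% of all genes, with a median of −0.13. *Ces1d* and *Cyp2f2* are among these 5 and also among the 7 lower club cell genes, so the lists are not independent. *Gstm2*, a glutathione transferase, differed by −0.41 (adjusted p = 0.82).

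Markers of ciliated cells also had a negative median. Of 36 measured, 1 was higher (2.78%) and 6 lower (16.7%) at an unadjusted p of at most 0.05, against 1.94% and 2.33% of all genes, the median was −0.16, and 15 lay lower without overlap, where 7% of all probe sets did. *Ak8*, an adenylate kinase, was at 5.70, 5.98 and 5.95 in *Scnn1b*-Tg against 6.45, 6.27 and 6.5 in WT (difference −0.53, adjusted p = 0.76). *Sntn*, a protein of the ciliary tip, was at 4.66, 4.97 and 5.0 in *Scnn1b*-Tg against 5.28, 5.27 and 5.43 in WT (difference −0.45, adjusted p = 0.96). *Rsph4a*, a radial spoke protein, differed by −0.45, and *Dynlrb2*, a dynein light chain, by −0.29. *Foxj1*, the transcription factor that sets the ciliated fate, was at 5.63, 5.24 and 5.17 in *Scnn1b*-Tg and at 5.30, 5.41 and 5.34 in WT (difference −0.01, SE 0.19). Without WT replicate 1, 0 were higher and 5 lower, and without replicate 1 of both genotypes 1 and 1, with medians of −0.16 and −0.12. With array medians subtracted 0 were higher and 13 lower, where 0.973% and 6.2% of all probe sets were. At PND 10 the list's median was 0.34, on the other side of 0.

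Goblet cell and mucus genes gave no call at birth. Of 25 measured, 0 reached an unadjusted p of at most 0.05 in limma, against 1.94% higher and 2.33% lower of all genes. At these shares a list of this size would hold few such genes, so the count says little about the list. The groups did not overlap in 2 of the 25, both higher, where 12.5% of all probe sets did not overlap in either direction. The median difference was 0.03 (−0.05 with array medians subtracted). *Muc5ac*, the mucin of goblet cells, was at 4.16, 4.38 and 4.37 in *Scnn1b*-Tg and at 4.19, 4.26 and 4.28 in WT. *Muc5b*, the other gel-forming airway mucin, was at 4.62, 6.21 and 5.92 in *Scnn1b*-Tg and at 4.58, 5.70 and 5.56 in WT, with replicate 1 low in both genotypes (difference 0.30, SE 0.37, and −0.047 without WT replicate 1). *Spdef*, the transcription factor of goblet cells, differed by −0.07 (SE 0.13), and *Agr2*, which folds mucins, by 0.06 (SE 0.11). The membrane mucin *Muc4* came nearest, at 5.33, 6.87 and 6.40 in *Scnn1b*-Tg against 5.56, 6.03 and 5.70 in WT (difference 0.43, SE 0.25, adjusted p = 1.00). Only 5 of the 25 genes exceeded 5 log2 in a group, and the interval of the difference lay within ±1 for 24 of them.

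**Figure D4:**
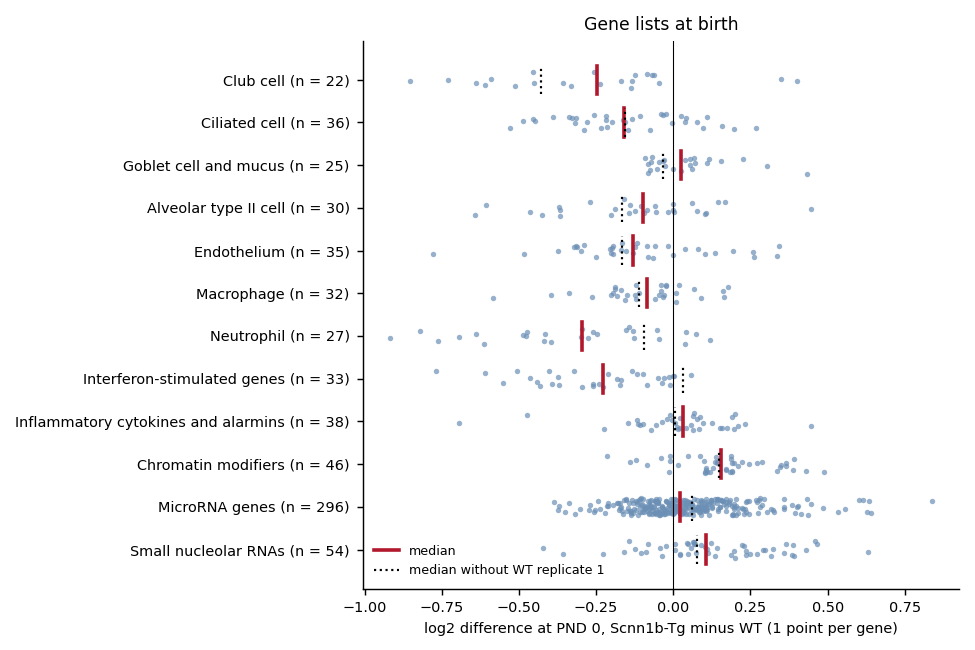
Differences between *Scnn1b*-Tg and WT at PND 0 (log2, horizontal axis), 1 point for each measured gene of 12 lists, with the list's median as a red line and its median without WT replicate 1 as a dotted line. Medians run from −0.30 for neutrophil genes, −0.10 without WT replicate 1, and −0.25 for club cell genes to 0.16 for chromatin modifiers.

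Inflammatory genes gave no call either. Of 38 inflammatory cytokines and alarmins, 0 reached an unadjusted p of at most 0.05 in limma (median 0.03), against 1.94% higher and 2.33% lower of all genes. The groups did not overlap in 2 of the 38, both higher, where 12.5% of all probe sets did not overlap in either direction. Only 15 of the 38 exceeded 5 log2 in a group, and the interval of the difference lay within ±1 for 33 of them. *Il1b* was at 4.86, 6.84 and 5.51 in *Scnn1b*-Tg and at 6.47, 5.69 and 5.35 in WT. The groups overlapped, and the difference of −0.10 was small beside its SE of 0.62. *Il33*, an alarmin of epithelial cells, was at 7.90, 8.91 and 7.66 in *Scnn1b*-Tg and at 6.45, 8.38 and 8.30 in WT, so that its difference was 0.45 with WT replicate 1 and −0.19 without it. The 32 macrophage genes had 0 higher and 1 lower (3.12%, against 2.33% of all genes), with a median of −0.09. Genes of macrophage activation had 0 of 25 (type 1) and 0 higher and 2 lower of 24 (type 2, 8.33% lower, and 0 lower without WT replicate 1), with a type 2 median of −0.04 at birth and 1.06 at PND 42. Chemokines and their receptors had 1 higher and 1 lower of 50 (2% each, median 0.00). The interval lay within ±1 for 41 of these 50 and for 20 of the 25 type 1 genes. *Ccr4*, a receptor of T cells, was at 3.48, 4.45 and 4.39 in *Scnn1b*-Tg against 3.58, 3.43 and 3.40 in WT (difference 0.64, adjusted p = 0.99).

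For some lists the negative median depended on WT replicate 1. Neutrophil genes (27 measured, 1 or 3.7% lower, against 2.33% of all genes) had a median of −0.30, which was −0.10 without that array and 0.06 without replicate 1 of both genotypes. *Ly6g*, a surface protein of neutrophils, was at 4.33, 3.83 and 4.22 in *Scnn1b*-Tg and at 6.08, 4.30 and 4.76 in WT, and *Mmp8*, neutrophil collagenase, at 5.83, 6.07 and 5.88 in *Scnn1b*-Tg and at 8.26, 5.6 and 6.39 in WT. In both genes WT replicate 1 was the high array. Interferon-stimulated genes (33 measured) had 0 higher and 4 lower (12.1%) with a median of −0.23, but 0 and 0 with a median of 0.03 without it. *Bst2*, the antiviral tetherin, was at 6.52, 6.30 and 6.47 in *Scnn1b*-Tg and at 7.75, 6.52 and 6.54 in WT. Genes of the hypoxia response (31) had 1 higher (3.23%) and 3 lower (9.68%). Their median was −0.20 with WT replicate 1 and −0.02 without it, but −0.12 without replicate 1 of both genotypes.

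For alveolar and vascular genes, 0 passed the adjusted p. Of 30 alveolar type II genes, 0 were higher and 3 (10%) lower at an unadjusted p of at most 0.05, against 1.94% and 2.33% of all genes, with a median of −0.10. Without WT replicate 1, 1 was lower and the median was −0.17. *Sftpc* differed by −0.42 (SE 0.28). Of 24 alveolar type I genes, 2 (8.33%) were higher and 0 lower (median 0.02), but without WT replicate 1 there were 0 higher and 1 lower, with a median of −0.06. *Rtkn2*, a marker of these cells, was at 9.41, 10.10 and 9.97 in *Scnn1b*-Tg and at 8.09, 9.60 and 9.68 in WT, so its difference of 0.70 was 0.19 without WT replicate 1. Endothelial genes had 0 higher and 4 (11.4%) lower of 35, and 1 and 2 without WT replicate 1. *Gpihbp1*, which anchors lipoprotein lipase on capillaries, was at 7.73, 7.60 and 7.63 in *Scnn1b*-Tg and at 8.34, 8.06 and 7.99 in WT (difference −0.48, SE 0.15, adjusted p = 0.76).

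Lists of general cell functions were next. Chromatin modifiers had 7 higher (15.2%) and 0 lower of 46 (median 0.16), against 1.94% and 2.33% of all genes. Without WT replicate 1 they had 3 and 0, against 1.24% and 1.49% of all probe sets. With array medians subtracted they also had 3 and 0, against 0.973% and 6.2% of all probe sets. *Atrx*, a chromatin remodeller, was at 8.75, 9.17 and 9.16 in *Scnn1b*-Tg and at 8.44, 8.55 and 8.62 in WT (difference 0.49, SE 0.15, adjusted p = 0.76). The mitochondrial respiratory chain had 0 higher and 3 lower (6.12%) of 49, against 1.94% and 2.33% of all genes. Its median was −0.12 (all genes −0.02), with 47 of 49 below 0. With array medians subtracted 8 were lower (median −0.19), where 6.2% of all probe sets were (median −0.09). Without replicate 1 of both genotypes 6 were lower (median −0.20), where 2.05% of all probe sets were (median −0.03). *Ndufa9*, a complex I subunit, was at 8.77, 8.52 and 8.58 in *Scnn1b*-Tg and at 8.95, 9.0 and 8.92 in WT (difference −0.33, SE 0.11, adjusted p = 0.82). Genes of mitosis had 0 of 37 at an unadjusted p of at most 0.05 (median −0.14, and −0.03 without WT replicate 1).

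The differences called at later ages were not seen at birth. Of the probe sets called higher at PND 10 (23, 0.106% of those tested) and at PND 42 (71, 0.326%), *Scnn1b* and *Ttr* were set aside. The 21 left from PND 10 had a median difference of 1.24 at PND 10 and −0.07 at birth, where they ran between −0.37 and 0.23. The 69 left from PND 42 had a median of 1.5 at PND 42 and −0.04 at birth, between −0.51 and 0.47. At birth 0 of the 21 and 2 of the 69, both lower, had an unadjusted p of at most 0.05. For all 21 and all 69, the 95% interval at birth excluded the size of the later difference. The same held for the 10 called lower at PND 10 (0.0459%) and the 3 called lower at PND 42 (0.0138%). This outcome was nearly fixed by the choice of probe sets with a later difference of at least 1 log2. Over all probe sets, 98.1% had a birth interval within ±1, and the error of the later difference was left out. Counted over all probe sets tested, and not only those called later, the contrast between ages passed in 14 against PND 10 and in 66 against PND 42. Both counts include *Mir126a* and *Phxr4*, whose difference was the larger at birth.

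Among single genes, *Chil4*, a chitinase-like protein of type 2 inflammation, was at 3.81, 3.92 and 3.86 in *Scnn1b*-Tg and at 4.29, 3.94 and 4.23 in WT at birth (difference −0.29, SE 0.32), against a difference of 4.42 at PND 42. *Mmp12*, macrophage elastase, was at 4.42, 4.9 and 4.93 in *Scnn1b*-Tg and at 4.46, 5.02 and 4.85 in WT (difference −0.02, SE 0.28), and differed by 4.34 at PND 42. *Clca1*, a secreted protein of goblet cells, was at 3.98, 4.06 and 4.47 in *Scnn1b*-Tg and at 4.15, 3.91 and 4.10 in WT. Its difference was 0.12 at birth, −2.47 at PND 10 and 4.05 at PND 42, so it changed side between the later ages. *Saa3*, an acute phase protein, spread widely within both groups, with 7.25, 9.54 and 6.29 in *Scnn1b*-Tg and 6.83, 8.24 and 6.6 in WT, and its difference of 0.47 at birth had an SE of 1.00. For *Cd177*, *Gpnmb*, *Ctsk*, *Slc26a4* and *Gp2*, birth differences lay between −0.30 and 0.09.

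**Figure D5:**
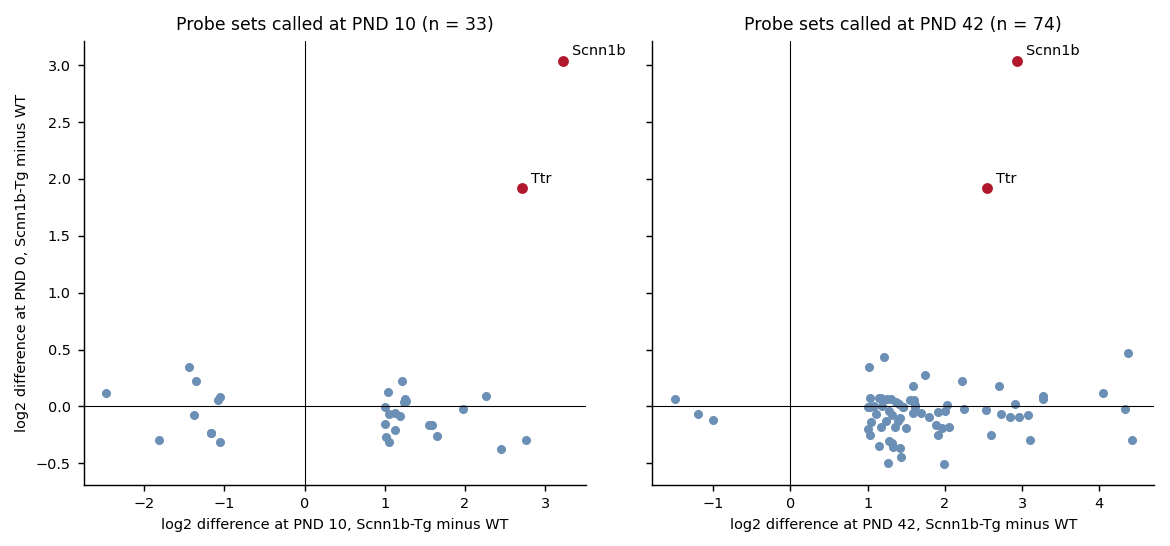
Difference between *Scnn1b*-Tg and WT at PND 0 (log2, vertical axis) against the difference at PND 10 (left, 23 higher and 10 lower) or PND 42 (right, 71 higher and 3 lower) for the probe sets called at that age (log2, horizontal axis). Apart from *Scnn1b* and *Ttr*, points lie within 0.51 of 0 at PND 0.

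The change in the genotype difference between ages was also tested itself. The difference at birth departed from that at PND 10 in 14 probe sets (0.0643%), and from that at PND 42 in 66 (0.303%), at an adjusted p of at most 0.05. For PND 10 the count was 193 without *Scnn1b*-Tg replicate 1 and 3 without WT replicate 1. From PND 3 it departed in 0 probe sets in limma, with 1,034 (4.75%) at an unadjusted p of at most 0.05.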

How the data were processed

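RNA of whole left lung lobes was measured on 24 Affymetrix Mouse Gene 1.0 ST arrays. The authors background-corrected the probe intensities by RMA after GC and sequence adjustment, quantile-normalized them and summarized them by median polish in Partek (6.5 in the processing notes), and deposited log2 values, 1 per probe set and array. Of 35,556 probe sets, 21,789 name exactly 1 gene, 1,621 several and 12,146 none. No new normalization was applied. Groups and replicate numbers came from the sample titles, and no scan dates or other batches were available in the sources used here.

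limma 3.58.1 (R 4.3.3, statmod 1.5.0) fitted 8 group means to the 24 arrays (lmFit, eBayes), with p-values adjusted by Benjamini-Hochberg within a contrast. A gene with several probe sets was read from the brightest over all arrays. The smallest two-sided exact permutation p for 3 against 3 arrays is 0.1, so single values were tested in the fit. Nothing says that pools of a group were independent beyond the animal numbers, so p-values measure the spread between these pools. The fit was tested on simulated data.

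The members and the 52 gene lists were chosen with earlier results of these data known. Named genes are all probe sets at an adjusted p of at most 0.05, *Scnn1b*, *Scnn1a*, *Scnn1g*, *Scgb1a1*, *Ttr* and *Phxr4*, the 12 largest differences without overlap in each direction among probe sets above 5 log2, for each list the members with the lowest p (up to 4) and those that define its cell type, up to 10 called at PND 10 or 42, and *Xist* with Y-linked genes. *Cspp1*, *Spaca6*, *Pank2*, *Egfl7*, *Alb*, *Ahsg*, *Nppa* and the microRNA genes with shared seeds were named after their values were seen.

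Same-numbered PND 0 arrays of the genotypes deviated together (correlations of deviations from the group means 0.30, 0.15 and 0.29, against −0.39 to 0.26 for differently numbered arrays, with *Scnn1b*-Tg replicate 2 closer to WT replicate 3 than to WT replicate 2), so the replicate number was also fitted as a block. Other alternatives changed moderation, the arrays fitted, weights, filters, scaling and thresholds, and left out each array. Mature microRNA sequences and their positions are from RefSeq (GRCm38.p6), as are the genes that span a microRNA gene, whose strand was not compared.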

Additional observations from a re-analysis of the deposited data

Results flagged for a closer look

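For several probe sets the genotype difference at birth departed from that at a later age, by a limma contrast of the differences with Benjamini-Hochberg adjustment. This held for 14 probe sets against PND 10 and 66 against PND 42. The difference at birth minus that at PND 10 was 0.95 for *Mir126a* and 1.44 for *Phxr4*, and the same against PND 42 was 0.90 for *Mir126a*, 1.26 for *Phxr4*, 0.73 for the dimmer probe set of *Prkch* and 1.19 for that of *Rmdn2*. In these the higher level in *Scnn1b*-Tg at birth was not seen later. The probe sets of *Mir126a*, *Phxr4* and *Prkch* (the dimmer) lay below 5 log2 on every later array of both genotypes. At such low levels a genotype difference could go unseen. The opposite held for genes called at PND 42: the difference at birth minus that at PND 42 was −4.71 for *Chil4*, −4.36 for *Mmp12*, −3.93 for *Clca1*, −3.40 for *Cd177*, a surface protein of neutrophils, −3.21 for *Ctsk*, the protease cathepsin K, −3.18 for *Gpnmb*, −3.15 for *Slc26a4*, the anion exchanger pendrin, and −3.06 for *Gp2*. For *Clca1* the difference at birth minus that at PND 10 was 2.59, since it was lower in *Scnn1b*-Tg at that age.

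Among probe sets that name no gene or several, which entered no gene comparison, 42 passed at the adjusted p at birth in a fit over all rows of the table, all of them higher in *Scnn1b*-Tg.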

How the results depend on the processing

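*Scnn1b*, *Mir126a* and *Phxr4* had an adjusted p of at most 0.05 under every alternative except the fit of the 6 PND 0 arrays alone, where *Scnn1b* kept its difference of 3.04 with an adjusted p of 0.74. Without single arrays its difference ran between 2.62 and 3.26. The *Ttr* difference of 1.92 missed the threshold without moderation (adjusted p = 0.15) and with the 6 arrays alone (0.74), and ran between 1.63 and 2.48 without single arrays. That of *Scgb1a1* ran between −1.04 and −0.41. The 3 calls became 0 with the 6 arrays alone, 24 over all rows of the table, 5 without replicate 1 of both genotypes (chosen after seeing the data), 5 without a fold threshold or at 1.5-fold, and 2 to 7 without single arrays. The 5 at the adjusted p alone became 0 with the 6 arrays alone, 8 with an intensity trend, 139 with array weights (112 higher and 27 lower), 50 over all rows, 12 without replicate 1 of both genotypes, and 3 to 20 without single arrays. With the replicate number as a block there were 6, the 5 and *Rmdn2*, and with a replicate block within each age 6, the 5 and *Fbxl7*.

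The count of differences from PND 3 (0) became 1 with an intensity trend, 19 with array weights, 1 without replicate 1 of both genotypes and 0 to 2 without single arrays. That from PND 10 (14) became 6 without moderation, 595 with array weights, 39 above 5 log2, 24 over all rows, 25 with 1 probe set per gene, 50 with array medians subtracted, 50 with the replicate block within each age, 66 without replicate 1 of both genotypes and 3 to 193 without single arrays. That from PND 42 (66) became 31 without moderation, 169 with array weights, 41 without replicate 1 of both genotypes and 40 to 47 without single arrays. *Scnn1a* changed side to −0.038 without WT replicate 1 and −0.066 without replicate 1 of both genotypes (−0.038 to 0.23 without single arrays), and *Scnn1g* to 0.017 without *Scnn1b*-Tg replicate 3 and 0.011 without WT replicate 3 (−0.15 to 0.017). The cause of these shifts was not tested. The block changed no other call among the named probe sets. List medians moved by more than the SD between replicates of the list's mean level in 21 cases, mostly with array medians subtracted.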
